A study of Mus musculus with 20 samples.

Results

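The genes described here are 39 type I interferon-stimulated genes, the genes that a cell switches on when it senses interferon alpha or beta. They were chosen by name from the interferon pathway, with earlier results of these data known, by a rule that sets no threshold on a measured value, as all probes of the array that carry the name of 1 of these genes. The 39 genes, among 25034 named genes on the array, were covered by 73 probes, and the brightest probe of a gene stood for it. Levels are log2 processed signals minus the 75th percentile of the same array, so that 0 is the 75th percentile of that array, and a level was compared only with levels of the same probe.

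Transcripts were measured in pieces of small intestine from 20 C57BL6/j mice with 1-colour Agilent arrays, 1 array for each mouse. The Cre control group (6 arrays) held young adult VillinCreER/0 mice, which carry a tamoxifen-inducible Cre recombinase driven by the Villin promoter of gut epithelium. The BRAFV600E group (6 arrays) held young adult VillinCreER/0 mice that also carried the inducible allele BrafV600E-LSL/+, and both groups received tamoxifen on consecutive days before tissue was taken days later. The MEKi group (4 arrays) received tamoxifen and then the MEK inhibitor PD184352, and the Vehicle group (4 arrays) received tamoxifen and then the carrier of DMSO and Cremophor EL in water. The labels give no genotype for the MEKi and Vehicle mice. The study's legends describe them as mice with the mutant allele. The samples were whole tissue, so the arrays hold RNA of epithelial, immune and stromal cells together, and fewer cells of a type cannot be told apart from less RNA per cell. The first pair of groups asks what mutant BRAF changes in the intestine, and the second asks which changes follow inhibition of MEK, the kinase that BRAF activates.

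Type I interferons bind the receptor formed by IFNAR1 and IFNAR2, which activates the kinases JAK1 and TYK2. These phosphorylate STAT proteins, STAT2 among them, which join IRF9 as the complex ISGF3 and bind interferon-stimulated response elements in the promoters of their targets. The targets include sensors of foreign nucleic acid, the same transcription factors, and effectors that degrade viral RNA, block translation or trap virus particles. In the gut, epithelial and immune cells both hold this response, and type III interferons act on the epithelium through the same complex.

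Promoter sequences of 30 of the 39 genes were found in the RefSeq promoter table (build GRCm38.p6, 250 bases before to 50 bases after the start). The letters GAAANNGAAA, the core of the response element bound by ISGF3, were searched on both strands. They were present in at least 1 promoter of 12 of these 30 genes (40.0%), against 3.99% of 27025 genes in the table. The letters TTCNNNGAA, the core of the gamma interferon activation site, were present in promoters of 7 of the 30 genes (23.3%), against 9.55% of all genes. A match of letters is a description of the window and does not show that a factor binds there. The 250 bases before the start of Isg15 (chr4:156200819-156201068, minus strand) and Ifit1 (chr19:34640639-34640888, plus strand) are shown because both genes rose under MEKi and hold several copies of the core, which is printed in capitals.
Isg15: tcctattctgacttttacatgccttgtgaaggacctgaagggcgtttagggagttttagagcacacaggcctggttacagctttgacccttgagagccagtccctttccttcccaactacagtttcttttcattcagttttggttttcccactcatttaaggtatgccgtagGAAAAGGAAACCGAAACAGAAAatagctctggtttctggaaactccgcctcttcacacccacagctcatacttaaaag
Ifit1: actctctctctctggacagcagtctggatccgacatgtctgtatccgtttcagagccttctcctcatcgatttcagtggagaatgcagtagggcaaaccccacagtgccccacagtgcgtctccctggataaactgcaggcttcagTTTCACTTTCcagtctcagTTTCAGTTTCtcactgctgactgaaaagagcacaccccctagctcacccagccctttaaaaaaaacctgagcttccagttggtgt

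In Isg15 3 overlapping copies formed 1 block, with first bases at positions -78, -72 and -66 from the start. In Ifit1 2 separate copies lay on the opposite strand, at positions -104 and -85. Shorter windows around the core are shown for other members, called or not called under MEKi. Ifit3 (chr19:34583363-34583426) and Stat2 (chr10:128270266-128270295) were called higher. Oas1a (chr5:120907520-120907555), Oas3 (chr5:120777715-120777744) and Rsad2 (chr12:26456553-26456582) did not pass the test, although each had every MEKi array above every Vehicle array. Their log2 fold changes were 0.85, 1.104 and 0.88, beside 0.69 for Stat2. Each window is read along its gene, and the capitals again mark the core.
Ifit3: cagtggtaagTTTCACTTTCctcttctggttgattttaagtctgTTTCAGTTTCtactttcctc
Stat2: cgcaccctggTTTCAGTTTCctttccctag
Oas1a: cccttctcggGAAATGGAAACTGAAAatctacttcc
Oas3: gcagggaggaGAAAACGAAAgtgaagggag
Rsad2: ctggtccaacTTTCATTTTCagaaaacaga

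Copies of the core were found both in members called under MEKi and in members not called. Of the members called higher under MEKi, 11 had a promoter in the table and 5 of these (45.5%) held the core. Of the members that did not pass the test, 19 had a promoter and 7 of these (36.8%) held the core. Oas1a and Oas1g held identical letters around the core. The Oas, Ifit and Mx genes have close copies, and whether probes of these families also bound transcripts of a copy was not tested.

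The arrays had 60.8% to 76.8% of spots well above background, and 0 spots were saturated. All Cre control arrays shared slide 1 with replicates 1 and 2 of BRAFV600E, whose other 4 arrays were on slide 2. The MEKi arrays formed 1 row of slide 3 and the Vehicle arrays the other, so that row and group cannot be told apart there. The slide 2 files give a spike-in slope of 0 throughout. Y-linked transcripts separated 13 arrays of high from 7 of low signal: Cre control replicates 1 to 3, BRAFV600E replicates 1, 2, 3 and 6, all 4 MEKi arrays and Vehicle replicates 1 and 3 were high. MAPK output genes gave a check of the labels: 12 of 15 rose in BRAFV600E, and 7 of 15 fell under MEKi. Etv4, Etv5, Spry4, Phlda1, Dusp4 and Spred1 were among the 7 called in both. The replicate numbers only tell arrays apart.

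Many of the interferon-stimulated genes were higher under MEKi than under Vehicle, led by Zbp1, Ifit1, Ifi44, Usp18 and Isg15, and 1, Mx1, was higher in BRAFV600E than in Cre control. All 39 genes passed the filter on low values in both comparisons. Under MEKi 16 of 39 (41.0%) were called higher at an adjusted p under 0.05, against 1.09% of 19231 genes tested, and 0 of 39 were called lower, against 0.884%. On 29 of the 39 genes (74.4%) every MEKi array lay above every Vehicle array, against 6.44% of all genes, and on 0 did every MEKi array lie below, against 5.76%. The median log2 fold change of the 39 genes was 0.86, beside 0.04 over all genes tested, and 35 of 39 estimates were above 0. In BRAFV600E against Cre control 1 of 39 was called higher, against 6.19% of 19041 genes, and 0 were called lower, against 6.27%, although 9 had an unadjusted p under 0.05. The median was -0.21, beside -0.02 over all genes, with 28 of 39 estimates below 0. It was -0.07 with Y-linked signal as a covariate and -0.08 with array weights. On 0 of the 39 genes did all BRAFV600E arrays lie above all Cre control arrays, against 4.19% of all genes, and on 0 did all lie below, against 3.17%. Of the 39 genes, 20 were called higher and 1 lower in the test of the difference between the fold changes, against 9.43% and 9.66% of 18359 genes.

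**Figure D1:**
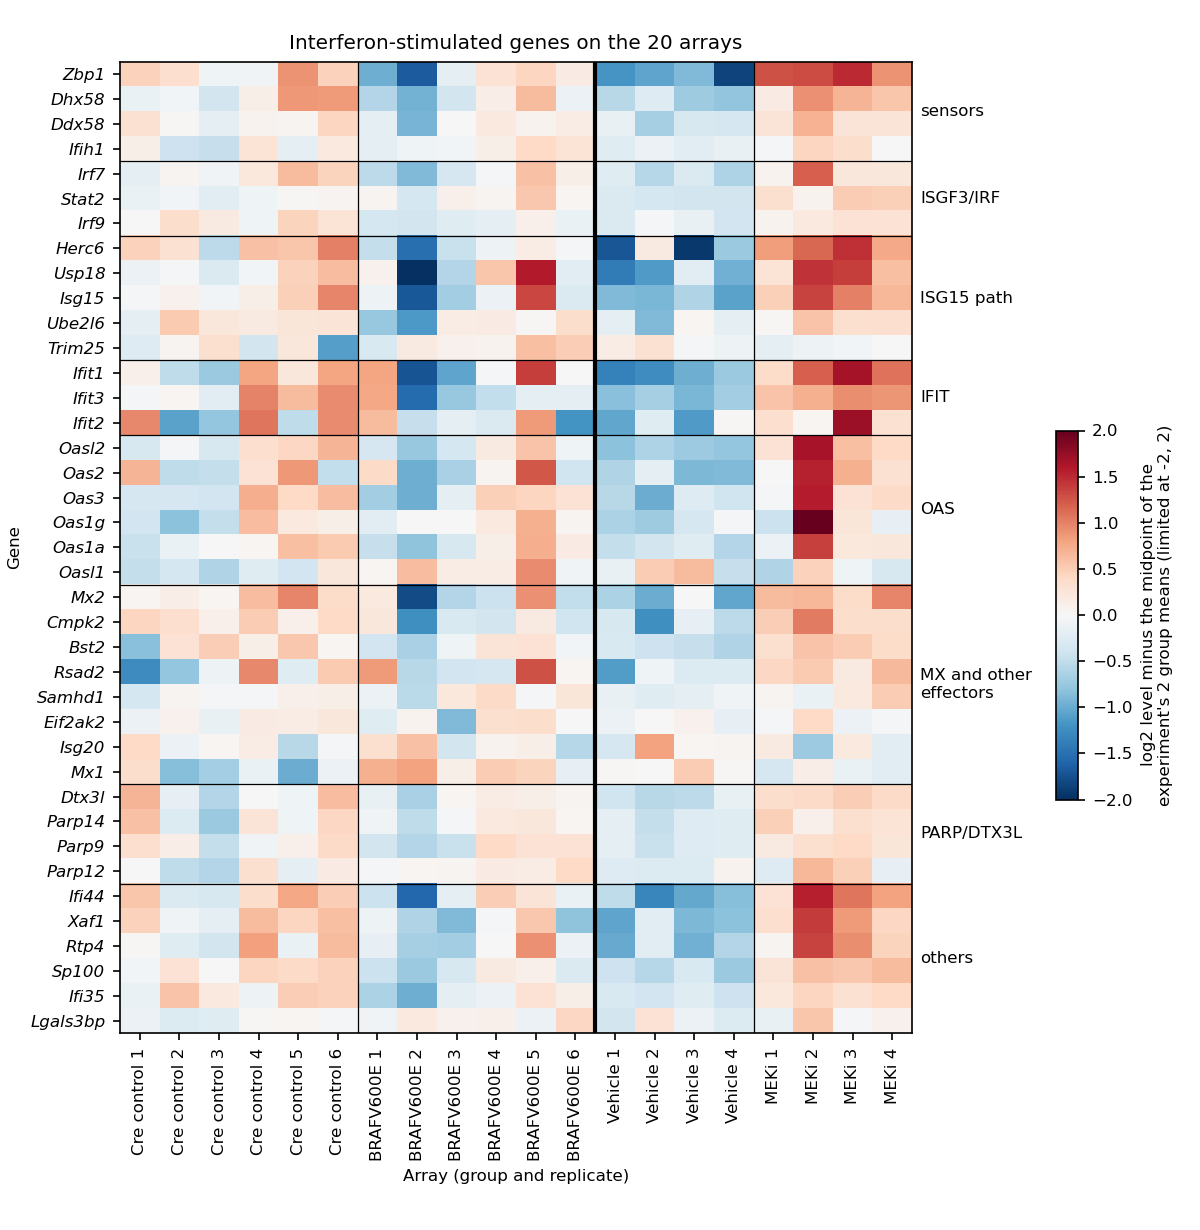
Each row is 1 of the 39 genes, grouped by role, and each column is 1 of the 20 arrays. Colour gives the log2 level minus the midpoint of the 2 group means of the same experiment, limited at -2 and 2, with red above and blue below. The Vehicle arrays are blue and the MEKi arrays red for most genes, while BRAFV600E replicate 2 is blue and replicate 5 red inside the same group.

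The number of calls under MEKi depended on the fit more than the direction did. Leaving out 1 of the 8 arrays gave 4 to 13 called genes and a median between 0.78 and 0.98. The count was 7, 13, 4 and 5 without MEKi replicates 1 to 4 and 7, 11, 7 and 5 without Vehicle replicates 1 to 4. When Y-linked signal entered as a covariate, 3 genes were called (Herc6, Ifit3 and Zbp1) and the median was 0.82, and with the array column as a block 1 gene (Zbp1) was called and the median was 0.86. The counts over all genes fell as well, from 380 to 53 and to 16. Ifit1, Ifit3, Isg15 and Zbp1 were called in all 8 fits without 1 array. Sp100 was called in 5 of these fits, Bst2 and Ifi44 in 4, Dhx58 and Dtx3l in 3 and Xaf1 in 2. Stat2, Mx2, Ifi35, Usp18 and Oasl2 were called in 1, and Parp9 in 0.

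Among the sensors, Zbp1 and Dhx58 rose under MEKi and 0 of 4 sensors passed the test in BRAFV600E. Zbp1, which senses nucleic acid in the Z form and can start necroptosis, was measured by a probe at chr2:173039307-173039366 (build mm9, as for all probes). Its level was 2.55, 2.58, 2.77 and 2.17 on the MEKi arrays and 0.09, 0.21, 0.39 and -0.58 on the Vehicle arrays. Every MEKi array lay above every Vehicle array, and the log2 fold change was 2.49 (SE 0.23, adjusted p = 0.00438), the largest of the 39. The second probe of Zbp1 gave a difference of means of 2.86. In the other experiment Zbp1 ran from 1.48 to 2.47 in Cre control (median 1.97) and from -0.08 to 2.01 in BRAFV600E (median 1.56), with 3 of 6 BRAFV600E arrays below every control array and a log2 fold change of -0.66 (SE 0.34, adjusted p = 0.215).

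Dhx58 encodes LGP2, the helicase that tunes the other RIG-I-like receptors. Its level was -0.72, 0.05, -0.19 and -0.32 under MEKi and -1.43, -1.13, -1.58 and -1.66 under Vehicle, without overlap, a log2 fold change of 1.15 (SE 0.20, adjusted p = 0.0296). Ddx58, which encodes the RNA sensor RIG-I, had all 4 MEKi arrays above Vehicle and a log2 fold change of 0.74 (SE 0.16) that did not pass the test (adjusted p = 0.0696). Ifih1, which encodes the long double-stranded RNA sensor MDA5, had the smallest difference of the sensors, 0.37 (SE 0.14, adjusted p = 0.247).

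Stat2, Irf9 and Irf7 were higher on every MEKi array than on every Vehicle array, but the test was passed by Stat2 alone of these 3 genes. Stat2 had a log2 fold change of 0.69 (SE 0.13, adjusted p = 0.0415), with Vehicle arrays between 1.81 and 1.89 and MEKi arrays between 2.25 and 2.68. The call of Stat2 held in 1 of 8 fits without 1 array. Irf7, the factor that amplifies interferon production, differed by 0.86 (SE 0.25, adjusted p = 0.146) and Irf9 by 0.42 (SE 0.13, adjusted p = 0.146). In BRAFV600E 5 of 6 arrays lay below all Cre control arrays for Irf9, with a log2 fold change of -0.39 (SE 0.13, adjusted p = 0.0719), whereas its second probe gave a difference of 0.14. The 2 probes of Stat2 also differed in sign in that experiment, with 0.14 for the brighter and -0.69 for the other.

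The ISG15 pathway attaches a ubiquitin-like protein to other proteins, and its modifier and its protease both rose under MEKi. Isg15, the modifier itself, was measured by a probe at chr4:155573649-155573708. Its level was 3.94, 4.81, 4.47 and 4.12 on the MEKi arrays and 2.57, 2.55, 2.85 and 2.38 on the Vehicle arrays, a log2 fold change of 1.74 (SE 0.21, adjusted p = 0.0108). The lowest MEKi array lay more than 1 log2 unit above the highest Vehicle array. Usp18, which removes ISG15 and restrains signalling at the interferon receptor, was at 0.23, 1.40, 1.34 and 0.56 under MEKi and at -1.45, -1.17, -0.26 and -1.004 under Vehicle. These groups were close at their edges, the log2 fold change was 1.85 (SE 0.34, adjusted p = 0.0391), and 1 of 8 fits without 1 array kept the call.

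Herc6, the ligase that joins ISG15 to its substrates in the mouse, had a log2 fold change of 2.10 (SE 0.45) and did not pass the test (adjusted p = 0.0609). Its level was -3.01, -2.69, -2.38 and -3.08 under MEKi and -5.56, -3.66, -5.77 and -4.58 under Vehicle, where 2 of 4 arrays were well above background. In BRAFV600E it ran from -4.61 to -2.95 (median -3.37) and in Cre control from -3.62 to -2.09 (median -2.60), a log2 fold change of -0.80 (SE 0.30, adjusted p = 0.0937). Ube2l6, the conjugating enzyme of the pathway, differed by 0.62 under MEKi (SE 0.22, adjusted p = 0.204). Trim25, a ligase that acts on RIG-I, had the smallest difference of the 5, -0.16 (SE 0.13, adjusted p = 0.599).

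**Figure D2:**
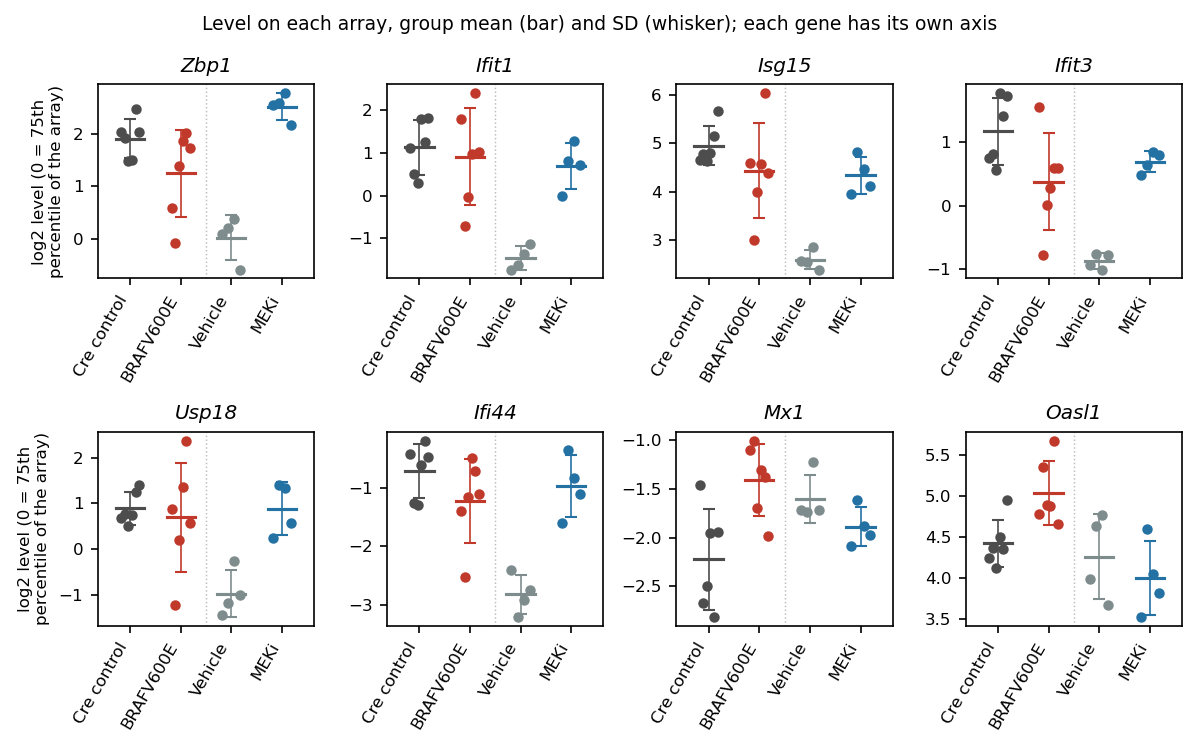
Points are single arrays, bars group means and whiskers SD, for 8 genes, with the log2 level on the y axis (0 is the 75th percentile of the array) and a separate axis for each gene. Zbp1, Ifit1, Isg15, Ifit3, Usp18 and Ifi44 have every MEKi array above every Vehicle array. Mx1 and Oasl1 have overlapping MEKi and Vehicle arrays and 4 and 2 of 6 BRAFV600E arrays above all Cre control arrays.

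The IFIT proteins bind viral RNA and block its translation, and 2 of 3 family members rose under MEKi. Ifit1 (probe at chr19:34723827-34723886) was at -0.01, 0.81, 1.29 and 0.71 under MEKi and at -1.74, -1.63, -1.36 and -1.12 under Vehicle. The log2 fold change was 2.16 (SE 0.27, adjusted p = 0.0134). Ifit3 (probe at chr19:34663105-34663164) was at 0.48, 0.63, 0.84 and 0.80 under MEKi and at -0.93, -0.76, -1.003 and -0.78 under Vehicle, and both groups were tight beside the log2 fold change of 1.55 (SE 0.13, adjusted p = 0.00329). Ifit2 was dim, with 2 of 4 Vehicle arrays well above background, and its log2 fold change of 1.199 (SE 0.41) did not pass the test (adjusted p = 0.199).

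The same family spread widely in the BRAFV600E mice. Ifit3 ran from -0.77 to 1.54 in BRAFV600E (median 0.43) and from 0.56 to 1.76 in Cre control (median 1.11), a log2 fold change of -0.79 (SE 0.35, adjusted p = 0.145). Ifit1 ran from -0.71 to 2.40 in BRAFV600E and from 0.29 to 1.82 in Cre control, and the BRAFV600E group held both the lowest and the highest array of the 12. Its log2 fold change of -0.22 (SE 0.48, adjusted p = 0.804) had an interval from -1.27 to 0.83.

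The OAS enzymes make short oligoadenylates that activate RNase L, and 1 of 6 members of the family, Oasl2, passed the test under MEKi. Oasl2 was at 2.77, 4.13, 3.08 and 2.88 under MEKi and at 1.66, 1.86, 1.75 and 1.71 under Vehicle, a log2 fold change of 1.47 (SE 0.29, adjusted p = 0.0461). MEKi replicate 2 stood more than 1 log2 unit above the other MEKi arrays, and the call held in 1 of 8 fits without 1 array. Oas2 (1.28), Oas3 (1.104) and Oas1a (0.85) also had all MEKi arrays above all Vehicle arrays, with adjusted p of 0.107, 0.165 and 0.207. Oasl1, which restrains the translation of IRF7, had the smallest difference, -0.27 (SE 0.31, adjusted p = 0.743). In BRAFV600E Oasl1 was the member nearest to a call in this family, with a log2 fold change of 0.61 (SE 0.20, adjusted p = 0.0580), and its second probe gave 0.91.

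The group of MX proteins and other effectors was mixed. Mx1, a GTPase that blocks virus entry and transcription in the nucleus, was the only member called in BRAFV600E. Its level ran from -1.98 to -1.01 in BRAFV600E (median -1.35) and from -2.81 to -1.46 in Cre control (median -2.23), with 4 of 6 BRAFV600E arrays above all controls. The log2 fold change was 0.81 (SE 0.25, adjusted p = 0.04996), and 3 of 12 fits without 1 array kept the call. The call was lost with normexp signals, no filter, the mean of probes, every probe and the Y-linked covariate. It was also lost with the slide as a block or random block and within slide 1. Quantile and unscaled signals, array weights, 1 fit of all 20 arrays and the filter for every array well above background kept it. The probe, at chr16:97668644-97668703, shares 1 end with a shorter probe that gave a difference of 0.39. C57BL/6 mice are known for a defective Mx1 allele, and where the probe lies relative to that defect was not examined.

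The estimates of Mx1 and its neighbour Mx2 had opposite signs in both comparisons, not all of them called. Mx2 was at -0.88, -0.85, -1.14 and -0.54 under MEKi and at -2.14, -2.51, -1.50 and -2.55 under Vehicle, a log2 fold change of 1.32 (SE 0.25, adjusted p = 0.0421). Mx1 differed by -0.29 under MEKi (SE 0.17, adjusted p = 0.462), and its shorter probe gave -0.0016. Mx1 was the only member with a called negative difference between the fold changes, -1.10 (SE 0.34, adjusted p = 0.0305). That call was lost without MEKi replicate 1 or 4, without Vehicle replicate 3 and with normexp signals. In BRAFV600E Mx2 had 4 of 6 arrays below all controls and a log2 fold change of -0.73 (SE 0.36, adjusted p = 0.199).

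Bst2, which encodes tetherin and holds budding virus at the cell surface, was at 2.40, 2.64, 2.59 and 2.45 under MEKi and at 1.77, 1.66, 1.60 and 1.47 under Vehicle. The spread within each group was small beside the log2 fold change of 0.89 (SE 0.12, adjusted p = 0.0152). Cmpk2, a mitochondrial nucleotide kinase, and its neighbour Rsad2, which encodes viperin, had all MEKi arrays above Vehicle and log2 fold changes of 1.12 and 0.88 with adjusted p of 0.0817 and 0.116. Eif2ak2, which encodes the translation-blocking kinase PKR, had the smallest difference of the 8, 0.10 (SE 0.15, adjusted p = 0.804). The nuclease gene Isg20 (-0.28, adjusted p = 0.709) and the nucleotide hydrolase gene Samhd1 (0.32, adjusted p = 0.356) overlapped between the groups.

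PARP9 and DTX3L form a pair that modifies histones and viral proteins, and both genes rose under MEKi. Dtx3l was between 1.998 and 2.14 on the MEKi arrays and between 1.09 and 1.501 on the Vehicle arrays, a log2 fold change of 0.81 (SE 0.13, adjusted p = 0.0235). Parp9 had a log2 fold change of 0.57 (SE 0.11, adjusted p = 0.0489), 1 of its other measurable probes gave -0.06, and the call held in 0 of 8 fits without 1 array. The ADP-ribosyltransferase genes Parp14 (0.58, adjusted p = 0.0677) and Parp12 (0.37, adjusted p = 0.504) did not pass the test.

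Of the 6 remaining genes, 4 rose under MEKi. Ifi44 was at -1.60, -0.34, -0.83 and -1.10 under MEKi and at -2.41, -3.21, -2.92 and -2.75 under Vehicle, a log2 fold change of 1.86 (SE 0.28, adjusted p = 0.0214). Xaf1, whose product opposes the apoptosis inhibitor XIAP, was at 0.20, 1.26, 0.70 and 0.27 under MEKi and at -1.21, -0.37, -1.04 and -0.97 under Vehicle, a log2 fold change of 1.502 (SE 0.28, adjusted p = 0.0391). Neither pair of groups overlapped. Sp100, a component of nuclear bodies, was at 0.03, 0.37, 0.31 and 0.41 under MEKi and at -0.64, -0.79, -0.53 and -0.96 under Vehicle. Its log2 fold change was 1.01 (SE 0.14, adjusted p = 0.0179), and its second measurable probe gave -0.02. Ifi35 had a log2 fold change of 0.67 (SE 0.11, adjusted p = 0.0263). Rtp4 differed by 1.39 (SE 0.30, adjusted p = 0.0650), and Lgals3bp, a secreted glycoprotein, by 0.23 (SE 0.20, adjusted p = 0.651), the smallest of the 6.

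**Figure D3:**
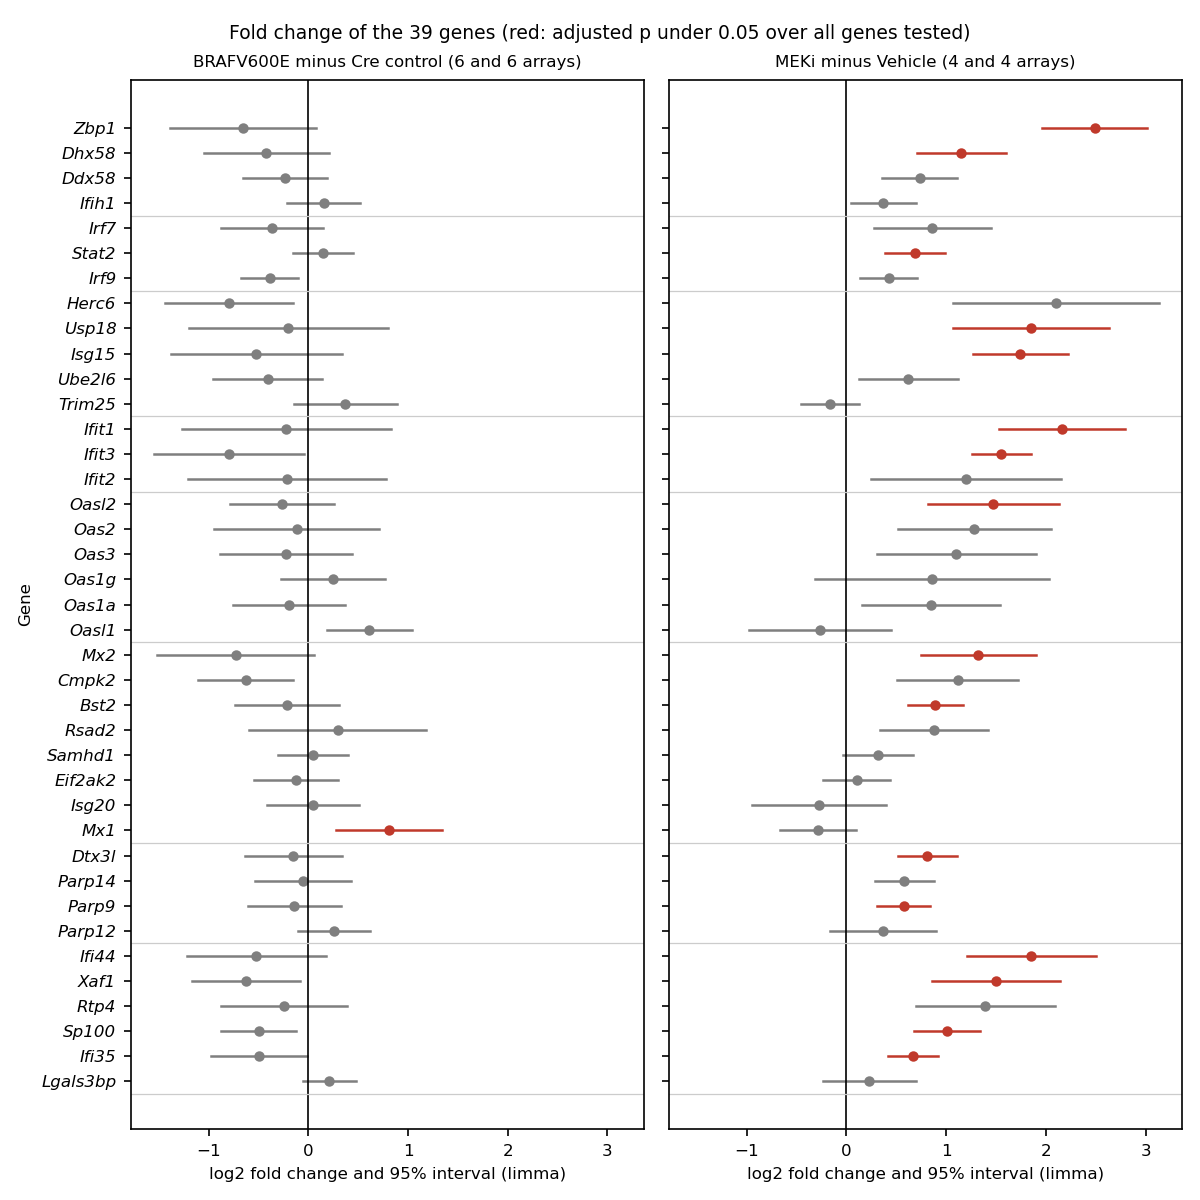
Points are log2 fold changes and lines 95% intervals from limma for the 39 genes, at left for BRAFV600E minus Cre control and at right for MEKi minus Vehicle. Red marks an adjusted p under 0.05 over all genes tested. The right panel holds 16 red genes, all above 0, and the left panel holds 1, Mx1.

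In BRAFV600E against Cre control the 39 estimates lay between -0.80 and 0.81, and most of the intervals included 0. Sp100 (-0.50, adjusted p = 0.0781), Cmpk2 (-0.63, adjusted p = 0.0769), Xaf1 (-0.63, adjusted p = 0.116), Ifi35 (-0.50, adjusted p = 0.157) and Herc6 were the negative estimates whose intervals excluded 0 besides Ifit3 and Irf9. The value depended on which BRAFV600E arrays were compared, and slide and single mice cannot be told apart here. With the slide as a block, which rests on BRAFV600E replicates 1 and 2 against the controls, the median of the 39 genes was -0.58, beside -0.06 over all genes. With this block 5 of the 39 were called lower (Herc6, Ifi35, Sp100, Ube2l6 and Zbp1), beside 1070 of 19041 genes, and 0 higher, beside 463. Within slide 1 alone the median was also -0.58, and 2 of the 39 (Ube2l6 and Zbp1) were called lower, beside 541 of 19041 genes. Without scaling between arrays all genes shifted by 0.79, and relative to that shift the median of the members was -0.19.

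The test of the difference between the fold changes set the 2 experiments side by side. They lay on different slides, whose files name different array designs, and the study's methods give them different tamoxifen schedules. The part of these conditions in the differences was not tested. The largest differences were those of Zbp1 (3.14, SE 0.48, adjusted p = 0.000181), Herc6 (2.90, SE 0.54) and Ifit1 (2.38, SE 0.67). Cmpk2 (1.74), Rtp4 (1.64), Irf7 (1.22), Ddx58 (0.97), Irf9 (0.81) and Herc6 passed this test without passing either comparison alone. Stat2 and Parp9, called under MEKi, did not pass it, with adjusted p of 0.0541 and 0.0836.

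The members varied together over single arrays. In the BRAFV600E group replicate 2 was the lowest array for 27 of the 39 genes, against 26.2% of all genes, and replicate 5 the highest for 25 of 39, against 16.0%. The median of the 39 genes relative to the midpoint of the experiment was -0.66 on replicate 2 and 0.43 on replicate 5, while the median of all genes was -0.06 and 0.02 on those arrays. In the MEKi group replicate 2 was the highest for 23 of 39 genes, against 29.6% of all genes, and replicate 1 the lowest for 28 of 39, against 18.1%. On the 4 Vehicle arrays the median of the members lay between -0.42 and -0.28, a narrower range than in the other groups. Without BRAFV600E replicate 2 the median log2 fold change of the members was -0.07.

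Y-linked signal moved with the members in 1 experiment. In Cre control the median of the members was between 0.17 and 0.44 on the 3 arrays of low Y-linked signal and between -0.22 and -0.03 on the 3 of high. On 14 of the 39 genes (35.9%) all 3 low arrays lay above all 3 high ones, against 2.43% of all genes, and on 0 did all lie below, against 3.22%. In BRAFV600E the 2 arrays of low signal were at 0.12 and 0.43 and the 4 of high between -0.66 and 0.01. In Vehicle the 2 low arrays (-0.42 and -0.38) and the 2 high arrays (-0.41 and -0.28) lay at like values. All 4 MEKi arrays were of high signal, and beside the fit with the covariate the part of Y-linked signal in the MEKi difference was not tested.

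**Figure D4:**
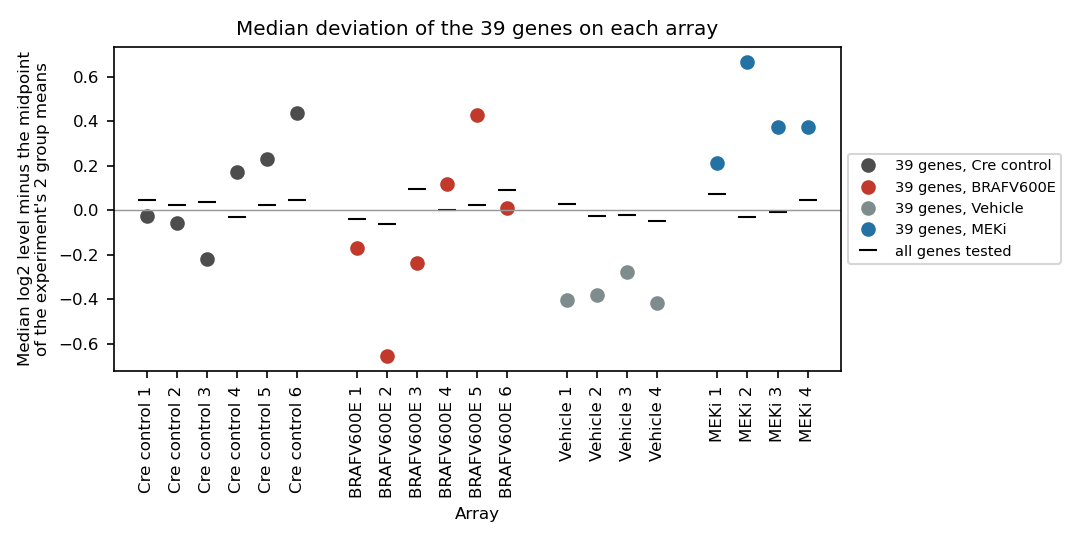
Each coloured point is the median of the 39 genes on 1 array, as the log2 level minus the midpoint of the 2 group means of the same experiment, and each black dash is the median of all genes tested. The 4 MEKi points sit between 0.21 and 0.67, above the 4 Vehicle points between -0.42 and -0.28. The BRAFV600E points spread from -0.66 to 0.43.

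Other genes of the pathway were counted by list. Of 11 measurable interferon and receptor genes 0 were called in either comparison by limma, with 1 at an unadjusted p under 0.05 in each. These were Ifnlr1, a receptor of type III interferon, in BRAFV600E (0.65, SE 0.24, adjusted p = 0.0946) and Ifng, which encodes interferon gamma, under MEKi (1.47, SE 0.45, adjusted p = 0.163), both named after their values were seen. Ifng had 3 of 4 MEKi arrays above all Vehicle arrays and was well above background on 1 of 4 Vehicle arrays. The type I receptor genes Ifnar1 and Ifnar2 differed by 0.21 (SE 0.21) and 0.08 (SE 0.15) under MEKi. Of 11 kinases, STATs and other IRFs, 1 was called higher in BRAFV600E, Irf2 (0.74, adjusted p = 0.00694), a factor that competes at interferon elements. Of 18 other nucleic acid sensing genes, the DNA sensor Cgas was called lower under MEKi (-0.91, adjusted p = 0.0256) and Ifi204 lower in BRAFV600E (-0.72, adjusted p = 0.0373). Of 16 negative regulators, Socs3, which inhibits JAK kinases, was called higher under MEKi (1.18, adjusted p = 0.0217) and 0 were called in BRAFV600E, with 2 at an unadjusted p under 0.05.

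A wider list of other genes that respond to interferon alpha held 65 genes tested under MEKi, with a median of 0.29. Of these 10 were called higher, against 1.09% of all genes, and 1 lower, against 0.884%. The largest were Psmb8 (1.97, adjusted p = 0.00405), Tap1 (1.76, adjusted p = 0.00491) and Psmb9 (1.497, adjusted p = 0.00438), which serve peptide presentation, and Trim30a (1.48, adjusted p = 0.0284). Plscr1, a phospholipid scramblase, was the 1 gene lower (-1.90, adjusted p = 0.0164). In BRAFV600E 66 genes of the list were tested, with a median of -0.06. Of these 2 were called higher, against 6.19% of all genes, and 7 lower, against 6.27%. Plscr1 was the highest (1.47, adjusted p = 6.87e-05), while Il7 (-1.33, adjusted p = 0.0265) and Trim30a (-1.06, adjusted p = 0.0419) were lower. Of 14 GTPases that respond mainly to interferon gamma, all 14 estimates were above 0 under MEKi. Their median was 0.95, beside 0.86 for the members. Of the 14, 5 were called higher, against 1.09% of all genes, which were Igtp (2.69, adjusted p = 0.0263), Gm12250 (2.07), Gbp6 (2.05), Ifi47 (1.97) and Irgm1 (1.62). In BRAFV600E 13 of these 14 estimates were below 0, with a median of -0.38 beside -0.21 for the members. There 3 were called lower, Gbp2, Gbp3 and Gbp4, against 6.27% of all genes.

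Markers of immune cells moved in part with the members. Of 16 T and NK cell markers, 14 estimates were above 0 under MEKi with a median of 0.71. By limma 10 of the 16 had an unadjusted p under 0.05, beside 3154 of 19231 genes tested. After adjustment 1, the granzyme gene Gzmb, was called higher (1.36, adjusted p = 0.0496). The summed linear level of the 16 markers is weighted towards the brightest of them. Relative to the 75th percentile of each array, it ran from 99.7 to 137.7 on MEKi arrays and from 81.3 to 142.1 on Vehicle arrays. Macrophage and dendritic cell markers had a median of -0.01 under MEKi with 0 of 12 called (0 at an unadjusted p under 0.05) and summed levels of 45.7 to 70.8 on MEKi and 44.3 to 68.5 on Vehicle arrays. Markers of plasmacytoid dendritic cells, known as strong producers of type I interferon, had a median of 0.11 under MEKi with 0 of 6 called (1 at an unadjusted p under 0.05) and summed levels of 144.9 to 210.9 on MEKi and 147.6 to 197.0 on Vehicle arrays. B cell and neutrophil markers had medians of 0.04 and 0.06 with 0 called by limma and 0 at an unadjusted p under 0.05.

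In BRAFV600E 0 immune markers were called higher, against 6.19% of all genes, and some were called lower, against 6.27%. T and NK cell markers had a median of -0.76 with 3 of 16 called lower (Cd3g, Cd8a and Lck). Macrophage and dendritic cell markers had a median of -0.37 with 3 of 12 called lower (Csf1r, Itgax and Cx3cr1). By limma 8 of the 16 and 5 of the 12 had an unadjusted p under 0.05, beside 5738 of 19041 genes tested. B cell, plasmacytoid dendritic cell and neutrophil markers had medians of -0.64, -0.51 and -0.46 with 0 called by limma (4, 2 and 1 at an unadjusted p under 0.05). Each epithelial marker was well above background on at least 1 array of every group, with 3 of 10 called higher in BRAFV600E (Krt19, Krt18 and Cdh1) and 1, Krt19, lower under MEKi (-0.72, adjusted p = 0.0297). Of 12 enterocyte markers Alpi (1.84, adjusted p = 0.00225) and Rbp2 (0.97, adjusted p = 0.0178) were higher and Mep1a (-3.0, adjusted p = 6.79e-05) lower in BRAFV600E, and 0 were called under MEKi by limma, with 2 at an unadjusted p under 0.05. Of 11 smooth muscle and stroma markers Des was higher in BRAFV600E (0.94, adjusted p = 0.0144), with the other sign for the mean of its probes (-0.42), and 0 were called under MEKi, with 0 at an unadjusted p under 0.05. The part of these markers in the levels of the interferon-stimulated genes was not tested.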

How the data were processed

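Per the file headers, the authors extracted each array with Agilent Feature Extraction (version 10.5.1.1), and the deposited intensity is a background-subtracted processed signal on a linear scale with no scaling across arrays. The series matrix that the authors deposited holds the same intensity (within 0.5% of the scanner value for 100% of spots). Deposited marks for spots above background, saturated or outlying served as filters. The labels repeat 1 treatment text on every array, which describes none of the 4 groups and was not used.

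Control spots and outlier spots were left out, signals were put on the log2 scale and the 75th percentile of each array was subtracted. Probes of the 39 genes were matched by the name in the files, and each gene was read from its brightest probe. Others were named through a RefSeq table (GRCm38.p6, names only; 34023 by accession, 9993 by symbol, 318 by synonym, 12271 unnamed). Probe coordinates are those of the files (mm9), and exon or UTR positions were not analysed here. Genes well above background on at least 6 of 12 or 4 of 8 arrays were tested with limma (version 3.58.1, R 4.3.3, lmFit and eBayes, two-sided, no covariates), each comparison on its own arrays and the difference between them on all 20. Calls are Benjamini-Hochberg adjusted p under 0.05 over all genes tested. The scripts were tested on simulated data. The number of arrays limits the precision, and the sample titles carry a different number for each sample but do not say what ties samples together, so p-values measure only the spread between these samples.

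The members and gene lists were chosen with earlier results of these data known. Every member is accounted for by role. Array values (in groups over 5 the lowest, median and highest) are given for members called in BRAFV600E, for up to 12 called under MEKi, and for the 3 largest fold changes in each comparison. Other members are given by ranges, counts and the largest and smallest change of each role, and genes of other lists when called, at most 6 a list. A gene that this rule also names is not reported here. Alternatives were quantile, unscaled and normexp signals (offset 50), 2 filters, the mean of probes, every probe, a Y-linked covariate, array weights, 1 fit of all arrays, slide and column blocks, and each array left out.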

Additional observations from a re-analysis of the deposited data

Results flagged for a closer look

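In 10 of 156 sets of 1 gene in 1 group, the highest or lowest array stood apart from the rest by more than the critical share of the group's range, where chance alone gives about 1 in 20, or 7.8. MEKi replicate 2 was the high array for Ddx58 (gap over range 0.977), Irf7 (0.865) and Eif2ak2 (0.837). BRAFV600E replicate 2 was the low array for Ddx58 (0.659), Dtx3l (0.628) and Herc6 (0.626). Cre control replicate 1 was the low array for Samhd1 (0.687) and Bst2 (0.627). Vehicle replicate 3 was the high array for Mx1 (0.947) and Vehicle replicate 4 for Parp12 (0.936).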

How the results depend on the processing

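No paired analysis was possible because the replicate numbers follow the order of the samples and pair none of them. For BRAFV600E against Cre control, the count of members called higher was 0 with no filter, with every probe and within slide 1. It was also 0 with the slide as a block or random block. The count was 2 with probes well above background on every array and with array weights, and 10 without scaling. With normexp, the mean of probes and the Y-linked covariate it was 1, and that gene was Oasl1, not Mx1. The count called lower was 2 with quantile scaling, normexp, all 20 arrays and within slide 1, and 5 with the slide as a block, where the median was -0.58, as within slide 1. Over all genes 1179 were higher and 1193 lower in this comparison, against 9161 and 176 without scaling and 1592 and 3056 with normexp. They were 463 and 1070 with the slide as a block and 193 and 541 within slide 1. For MEKi against Vehicle, the count called higher was 3 without scaling and with the Y-linked covariate, 9 with no filter and with every probe, and 1 with the array column as a block. For the difference, 4 were higher and 3 lower without scaling, and 0 were lower with normexp. Leaving out 1 array gave 0 to 1 higher, 0 to 1 lower and a median of -0.38 to -0.07 for BRAFV600E, 4 to 13 higher, 0 lower and 0.78 to 0.98 for MEKi, and 18 to 24 higher, 0 to 2 lower and 0.97 to 1.24 for the difference. In BRAFV600E 0 to 6 of the 39 signs turned under an alternative that kept all samples or 1 slide, 14 genes in all. Of the 24 members followed by name there, and of genes called in other lists, the sign turned for Ifit1 (0.0033 with the Y-linked covariate, 0.00068 with array weights, -0.52 to 0.10 leaving out 1 array), Usp18 (0.016, 0.046, -0.53 to 0.18), Stat2 (-0.27 for the mean of probes, -0.077 with the slide as a block and within slide 1), Parp9 (0.0037 with normexp, 0.0072 with array weights), Dtx3l (0.061, 0.032) and the muscle gene Des (-0.42 for the mean of probes). Rsad2 and Lgals3bp also turned for the mean of probes. Under MEKi it turned for Isg20 (0.019 with the Y-linked covariate, 0.0020 with array weights) and Eif2ak2 (-0.014 to 0.16 leaving out 1 array, with -0.014 without MEKi replicate 2). The cause was not tested. Zbp1 was called under MEKi in every alternative run. Dim probes limit Herc6 and Ifit2, which were well above background on 2 of 4 Vehicle arrays.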
